A study of Danio rerio with 2 samples.

Results

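The genes described here are the Period and Rev-erb genes of the circadian clock, with aanat2, a gene of melatonin synthesis that the clock drives. They are the 10 rows of the deposited table whose symbol is per1a, per1b, per2, per3, nr1d1, nr1d2a, nr1d2b, nr1d4a, nr1d4b or aanat2, out of 23809 genes. RNA with poly-A tails from whole zebrafish embryos at day 3 after fertilization gave 2 libraries, with 40 embryos pooled in each. One library came from embryos labelled untreated, and the other from embryos exposed to the triazole fungicide cyproconazole at 20 µM from 4 h after fertilization. All embryos carried the genotype SAGFF(LF)53A mitfab692/+, so both pools carried 1 mutant copy of the pigment cell regulator mitfa, and the labels name no solvent for either pool. The labels do not say which cells SAGFF(LF)53A marks.

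In the circadian clock of vertebrates, Clock and Bmal proteins switch on the Period and Cryptochrome genes, whose proteins then repress Clock and Bmal. The Rev-erb receptors, encoded by the nr1d genes, form a second loop: they bind heme, recruit corepressors and repress Bmal genes, against the Ror receptors, which activate them. Zebrafish tissues hold clocks that light resets directly, and per2 is one of the genes that light induces. The enzyme made by aanat2 sets the night-time rhythm of melatonin in the pineal organ, and the gene is also used in retinal photoreceptors. Levels of most of these genes therefore change over the day. Embryos were raised under 14 h of light and 10 h of dark, and no hour of collection is in the labels, so a difference in the hour at which the pools were taken and a difference in treatment cannot be told apart.

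With 1 library per group no difference has a replicate check, and each value compares these 2 libraries, not the conditions in general. Levels are given in FPKM (fragments scaled to transcript length and library depth), which can be compared between genes, and differences as a ratio of whole reads recovered from the table, scaled to library size. In brackets after a ratio stands its 95% exact binomial interval. It covers counting error alone. Because reads that lack molecular identifiers may be copies of 1 molecule, it may understate even that error. The control holds 18067935 whole reads in genes and the cyproconazole library 20726353. All 10 genes were above the minimum of 50 reads over both libraries. Because the RNA came from whole embryos, fewer cells of a type and less RNA per cell cannot be told apart.

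In the cyproconazole library, 3 clock repressor genes were at least 1.5-fold lower by reads: the Rev-erb genes nr1d1 and nr1d2a and the Period gene per1a. The melatonin gene aanat2 was more than 2-fold higher, with a counting interval that reaches just under 1.5-fold. Counted on the log2(FPKM + 1) scale, which understates the change of low genes, 2 of the 10 genes were at least 1.5-fold lower (nr1d1 and nr1d2a) and 1 was at least 1.5-fold higher (aanat2). Of the 18640 genes compared, 3.29% were that far apart, 1.71% lower and 1.58% higher. By reads, 3 of the 10 were past 1.5-fold on the lower side and 1 on the higher, where 5.99% of 18633 genes were that far apart, 3.13% lower and 2.86% higher. For 6 of the 10 the counting interval lay off 1, 5 below it and 1 above it. That was so for 30.3% of all genes, 14.5% below and 15.8% above, so an interval off 1 is common at this depth. Because the 10 genes were chosen with these values known, the counts describe them and are no evidence on the clock as a whole. The median log2(FPKM + 1) difference over the 10 genes was -0.06, beside 0.02 over all genes compared, since per1b, per3, nr1d4a and nr1d4b lay close to a ratio of 1.

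**Figure D1:**
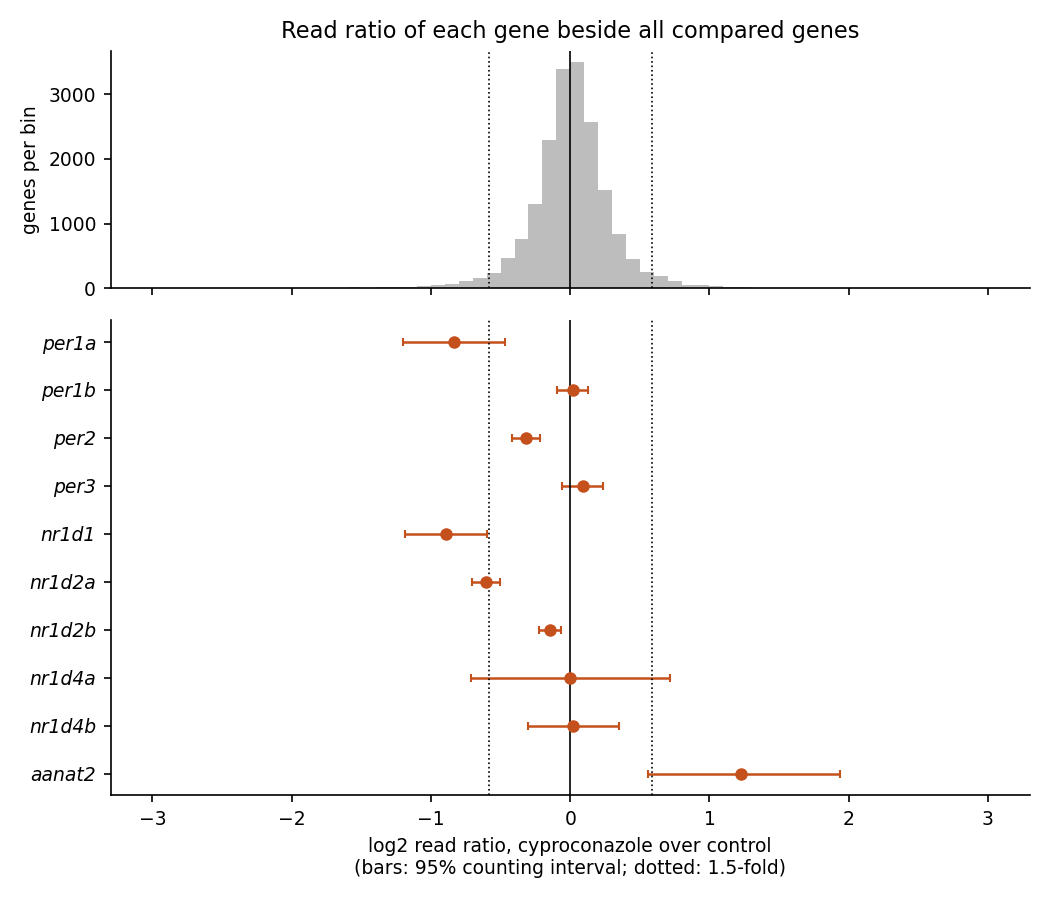
Upper panel: number of genes in each bin of the log2 read ratio, cyproconazole over control, for all genes with at least 50 reads (ratios beyond 3 on either side are put in the end bins). Lower panel: the same ratio for each of the 10 genes, with its 95% counting interval and dotted lines at 1.5-fold; per1a, nr1d1 and nr1d2a lie left of the left line and aanat2 lies right of the right line.

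Among the Period genes, which encode the repressors of the main loop, per1a stood lowest relative to the control. The control held 161 of its reads (1.21 FPKM) and the cyproconazole library 104 (0.743 FPKM), which gave a read ratio of 0.562 (0.435 to 0.723). Ratios at or below that value were held by 1.40% of all genes compared. On the log2(FPKM + 1) scale its difference was -0.34, within 1.5-fold, because the gene lies close to the added 1.

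The light-induced gene per2 went from 13.7 FPKM (1660 reads) in the control to 11.2 FPKM (1530 reads) with cyproconazole. Its read ratio of 0.801 (0.747 to 0.859) lay below 1 by more than counting error, but within 1.5-fold, and 9.85% of genes had a ratio as low. The paralog of per1a, per1b, had 8.09 and 8.27 FPKM (1238 and 1441 reads), with a read ratio of 1.01 (0.937 to 1.09). For per3, an accessory member of the family in mammals, 6.53 and 7.03 FPKM (698 and 855 reads) gave 1.06 (0.962 to 1.18). Both intervals hold 1, and their bounds lie within 1.5-fold of it.

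The Rev-erb genes encode the repressors of the second loop. The abundant gene nr1d2a stood at 29.3 FPKM (1832 reads) without cyproconazole and at 17.4 FPKM (1388 reads) with it. Its read ratio was 0.659 (0.614 to 0.707), and 2.96% of genes had a ratio as low. Its FPKM values were somewhat further apart than its reads, with an FPKM ratio of 0.594, which lies below the counting interval of the reads. In the authors' deposited table, nr1d2a had an unadjusted p-value of 0.0248, rank 8 of 23809 genes from the smallest up, from 1 library per group, so it is given here as a deposited value and not as a test. The same authors' deposited table gives 0.0528 for nr1d1 (rank 127), 0.111 for per1a (rank 403) and 0.156 for aanat2 (rank 682).

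The gene nr1d1, the counterpart of the Rev-erb alpha gene of mammals, was at 4.23 FPKM (255 reads) in untreated embryos and 2.34 FPKM (158 reads) in exposed embryos. With a read ratio of 0.539 (0.439 to 0.659) it was the lowest of the 10 genes, and its whole interval was past 1.5-fold; 1.17% of genes had a ratio as low. The second paralog of the Rev-erb beta pair, nr1d2b, had 34.1 and 31.7 FPKM (2638 and 2747 reads), so that its read ratio was 0.905 (0.858 to 0.955), a small difference beyond counting error. The fish genes nr1d4a and nr1d4b were close to 1. For nr1d4a, 0.796 and 0.762 FPKM (33 and 38 reads) gave 1.0 (0.611 to 1.65), too few reads to detect a 1.5-fold difference. For nr1d4b, 1.73 and 2.02 FPKM (148 and 173 reads) gave 1.02 (0.811 to 1.27).

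**Figure D2:**
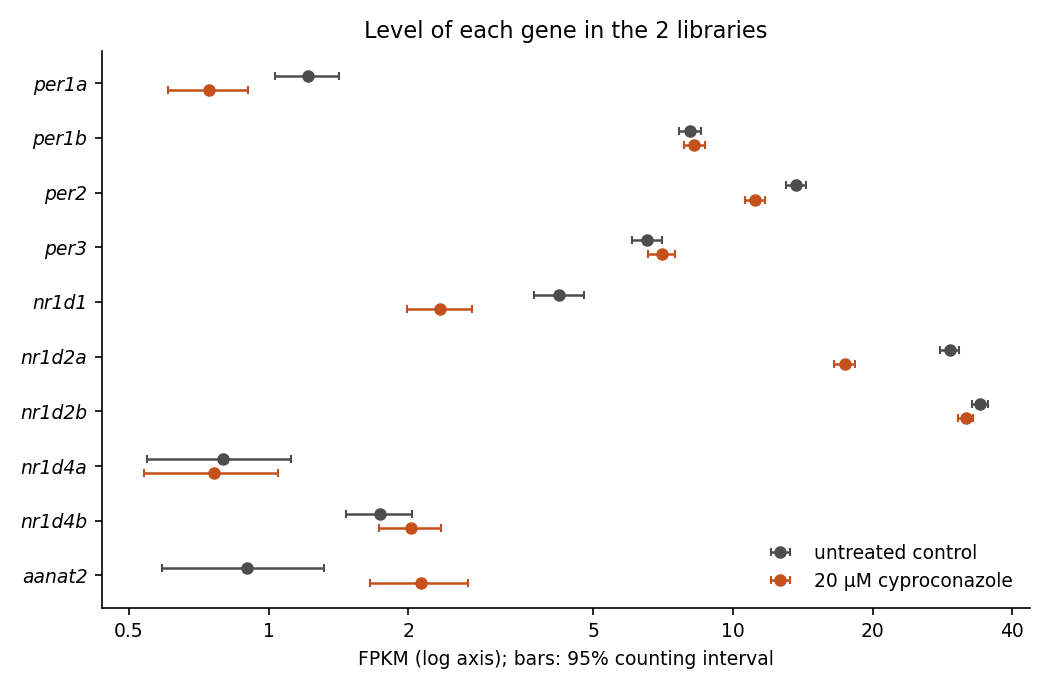
FPKM of each of the 10 genes on a log axis in the untreated control (grey) and the 20 µM cyproconazole library (orange), 1 library each. Bars are 95% counting intervals, the Poisson interval of the reads scaled to the FPKM, without the error of the FPKM estimate itself. The intervals of the 2 libraries are apart for per1a, per2, nr1d1, nr1d2a and aanat2.

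Duplicated genes of the same ancestry did not always move alike, as the 3 paralog pairs show when the read ratio of one is divided by that of the other. For per1a over per1b the quotient was 0.555 (0.424 to 0.723), and for nr1d2a over nr1d2b it was 0.728 (0.666 to 0.795). For nr1d4a over nr1d4b it was 0.985 (0.570 to 1.71), an interval too wide to tell a 1.5-fold difference between the paralogs from none. In levels, per1b was 6.66 times as abundant as per1a without cyproconazole and 11.1 times with it. The 2 Rev-erb beta paralogs were close in the control, with nr1d2b 1.16 times as abundant as nr1d2a, and further apart after exposure, at 1.82 times.

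As a family, the 4 Period genes summed to 29.5 FPKM untreated and 27.2 FPKM exposed, and their summed reads had a ratio of 0.909 (0.869 to 0.951). The 5 Rev-erb genes summed to 70.2 and 54.3 FPKM, with 0.798 (0.766 to 0.831) for summed reads. Most of the Rev-erb difference in FPKM lay in nr1d2a, whose share of the family's FPKM was 41.8% untreated and 32.1% exposed, while the share of nr1d2b was 48.5% and 58.5%. In the Period family per2 held the largest share in both libraries, 46.3% and 41.1%, and per1a the smallest, 4.11% and 2.73%.

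**Figure D3:**
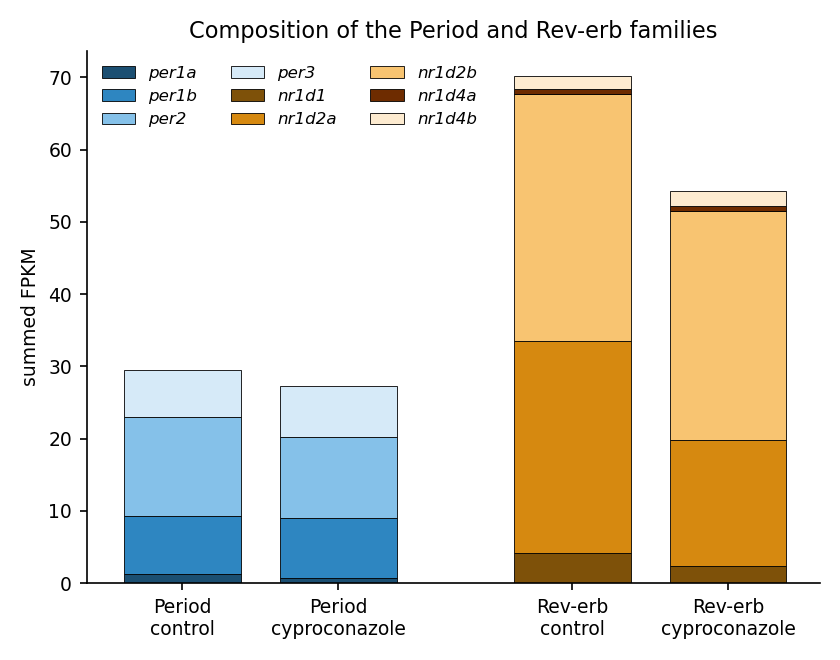
Stacked bars of FPKM for the Period genes (blue) and the Rev-erb genes (brown to yellow) in each library; the height of a bar is the family's summed FPKM. The nr1d2a band shrinks from 29.3 to 17.4 FPKM, while the nr1d2b band goes from 34.1 to 31.7 FPKM.

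The order of levels was the same for the most abundant genes in both libraries: nr1d2b, nr1d2a, per2, per1b, per3 and nr1d1, from high to low. Neighbours in that order did not overlap in their counting intervals. Below them the control had nr1d4b, per1a, aanat2 and nr1d4a, and the cyproconazole library had aanat2, nr1d4b, nr1d4a and per1a. Counting intervals of neighbours overlapped for per1a with aanat2 and aanat2 with nr1d4a in the control, and for nr1d1 with aanat2, aanat2 with nr1d4b and nr1d4a with per1a in the cyproconazole library.

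The gene aanat2 was the only one of the 10 with a counting interval above 1. With 0.899 FPKM (26 reads) in untreated and 2.12 FPKM (70 reads) in exposed embryos, its read ratio was 2.34 (1.47 to 3.83). Ratios at or above that value were held by 0.225% of all genes compared, but the 26 reads of the control leave a wide interval. Its known sites are the pineal organ and retinal photoreceptors, whose marker lists had medians on different sides of 0. The pineal median rests on only 3 compared genes, 1 of them below 1 by reads. Neither list was checked for genes used at both sites or elsewhere, so the 2 medians do not tell the sites apart.

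The pineal marker list had 7 genes in the table. Their summed level was 16.7 FPKM untreated and 21.2 FPKM exposed, mostly from otx5, and no marker was listed at 0. The pineal opsin gene exorh had 1.38 FPKM (10 reads) and 2.90 FPKM (25 reads), a read ratio of 2.17 (1.01 to 5.07), below the minimum of 50 reads. The transcription factor gene otx5, which regulates pineal genes, was at 10.1 and 13.02 FPKM (366 and 529 reads), a read ratio of 1.26 (1.1 to 1.44). The list's gene for the last enzyme of melatonin synthesis, asmt, had 0.586 and 0.587 FPKM (18 and 16 reads) for 0.773 (0.369 to 1.61). Of the 3 pineal markers that passed the minimum, 0 were past 1.5-fold, with a median log2(FPKM + 1) difference of 0.15. Besides otx5 these were bsx at 1.13 (0.747 to 1.73) and tph2 at 0.839 (0.614 to 1.15) by reads. Below the minimum, parapinopsinb had 5 and 12 reads for 2.09 (0.684 to 7.56). There parietopsin had 8 and 4 reads for 0.435 (0.096 to 1.62). These 4 were named with their values in view, and their intervals hold 1.

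Of 24 retinal photoreceptor markers, 12 were at least 1.5-fold lower on the log2(FPKM + 1) scale and 0 were higher, where 1.71% of all genes were that much lower. The summed level of the list was 1591 FPKM untreated and 1009 FPKM exposed, no marker was listed at 0, and the median difference was -0.56. The 12 genes were opn1sw1, opn1sw2, opn1mw1, opn1lw1, opn1lw2, gnat2, pde6c, pde6h, gnb3b, grk7a, grk1b and prph2b, most of them genes of cone photoreceptors. By reads 13 markers were at least 1.5-fold lower, beside 3.13% of all genes. Here gc3 and guca1c joined the 12 genes, and opn1lw1 dropped out, at 0.821 (0.634 to 1.06). The cone transducin gene gnat2 had a read ratio of 0.495 (0.465 to 0.528), while crx, a regulator of photoreceptor genes, had 0.943 (0.878 to 1.01). A pair of markers had intervals above 1: the rod opsin gene rho, with 71.7 and 84.6 FPKM and 1.17 (1.11 to 1.24), and the arrestin gene sagb at 1.15 (1.03 to 1.285). Not all rod genes lay on that side: the rod transducin gene gnat1 had 0.869 (0.752 to 1.004). The arrestin gene saga was at 0.839 (0.724 to 0.972) and nr2e3 at 0.809 (0.685 to 0.955). The genes rho, sagb, gnat1, saga and nr2e3 were picked with their values in view. The part of these markers in the aanat2 difference was not tested.

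The read ratio of aanat2 was set against those of 3 photoreceptor genes, a comparison chosen after the values were seen. Divided by that of otx5 it was 1.86 (1.15 to 3.10), and divided by that of crx 2.48 (1.55 to 4.08), so that aanat2 differed from both by more than counting error in these libraries. Against exorh the quotient was 1.08 (0.404 to 2.72), too wide to tell the pair apart or to call them alike.

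**Figure D4:**
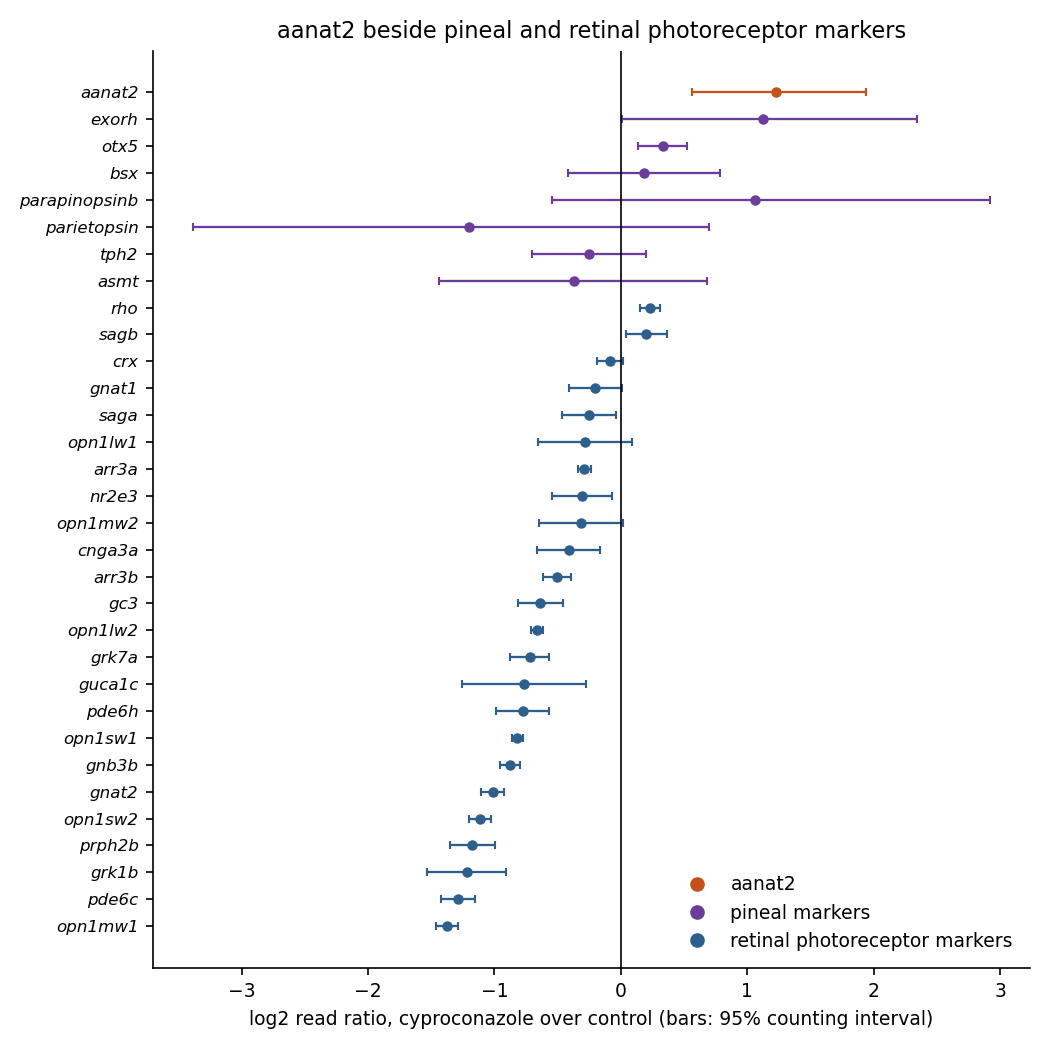
Log2 read ratio, cyproconazole over control, of aanat2 (orange), the pineal markers (purple) and the retinal photoreceptor markers (blue, sorted by ratio), with 95% counting intervals. The aanat2 interval lies right of 0, as do those of exorh and otx5. Intervals of the other pineal markers hold 0, and most retinal markers lie left of 0.

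Other genes of melatonin synthesis and reception stayed within 1.5-fold on the log2(FPKM + 1) scale. Several of them lay near or below 1 FPKM, where the added 1 hides much of a change, so that staying within says little about them. Of 12 such genes in the table, 7 passed the minimum, and 0 of the 7 were past 1.5-fold in either direction, with a median of -0.05. By reads the median was -0.13 and 1 of the 7 was past 1.5-fold, beside 5.99% of all genes. That 1 gene was tph1a (picked with its value in view), with 36 and 27 reads and a ratio of 0.652 (0.381 to 1.1), which holds 1. The related aanat1, named after its value was seen, had 15 and 27 reads and a ratio of 1.56 (0.803 to 3.16), which holds 1. Of the 7 counting intervals, 6 held 1 and 1 lay above it, beside 15.8% above over all genes. The 1 above was that of asmt2 (also named with its value in view). This gene had 3.85 and 5.23 FPKM (195 and 282 reads), a read ratio of 1.26 (1.04 to 1.52).

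Of the activators that Period and Rev-erb proteins repress, 6 Clock, Npas2 and Bmal genes were compared. Of these 0 were past 1.5-fold on either scale, and the median log2(FPKM + 1) difference was -0.02. By reads the median was -0.14, and 3 counting intervals lay below 1, 2 above it and 1 held it. Over all genes 14.5% of intervals lay below 1 and 15.8% above it. The ratios furthest from 1, picked with their values in view, were npas2 at 0.689 (0.490 to 0.966) and bmal2 (arntl2) at 1.34 (1.13 to 1.59). The Bmal gene bmal1a (arntl1a in the table), a target of Rev-erb repression in mammals, had 9.15 and 10.6 FPKM, for 1.16 by reads (1.02 to 1.31). Its paralog bmal1b (arntl1b) had 8.02 and 7.4 FPKM and 0.918 (0.795 to 1.06). The partner gene clocka had 4.10 and 3.94 FPKM and 0.862 (0.757 to 0.982).

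The cryptochrome family, which holds partners of Period proteins but also cry4, cry5 and cry-dash, stayed within 1.5-fold in 8 of 8 genes. Its median was -0.08. The light-induced cry1a (cry1aa in the table) had 28.5 and 25.0 FPKM, for 0.849 by reads (0.795 to 0.906). The DNA photolyase gene cry5, also induced by light, had 6.03 and 5.47 FPKM, for 0.904 (0.769 to 1.06). The 5 Ror receptor genes, whose products compete with Rev-erb at the same sites, had 0 genes past 1.5-fold and a median of -0.03. The 7 genes of the corepressor complex that Rev-erb recruits had 0 past 1.5-fold, a median of -0.01, and read ratios between 0.972 and 1.11.

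Of 10 genes that control the turnover of Period and Cryptochrome proteins, 1 was past 1.5-fold, beside 3.29% of all genes on the log2(FPKM + 1) scale. The gene past it was fbxl3b, a paralog of the F-box gene whose product marks cryptochromes for degradation in mammals, with 7.48 and 13.1 FPKM (220 and 419 reads), or 1.66 by reads (1.4 to 1.96). A list of 5 other genes set beside the clock repressors (bhlhe40, bhlhe41, ciarta, timeless and tipin) had 0 past 1.5-fold and a median of 0.07. Counting intervals of 4 held 1. That of bhlhe40, named with its value in view, lay above it, at 1.22 (1.14 to 1.31), as did 15.8% of intervals over all genes.

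The PAR bZIP and Nfil3 genes encode transcription factors through which the clock drives its outputs. Of 10 compared, 1 was at least 1.5-fold lower on the log2(FPKM + 1) scale, beside 1.71% of all genes. By reads 2 were, beside 3.13% of all genes. Those 2 were hlfb, with 6.53 and 3.88 FPKM, for 0.517 by reads (0.392 to 0.677), and hlfa, with 12.1 and 8.15 FPKM and 0.648 (0.576 to 0.729). The light-induced tefa had 57.9 and 57.2 FPKM and 0.940 (0.892 to 0.990). Of the 10 counting intervals, 6 lay below 1, 2 above it and 2 held 1, beside 14.5% below and 15.8% above over all genes. The 2 above it, named with their values in view, were nfil3 at 1.18 (1.07 to 1.30) and nfil3-5 at 1.11 (1.05 to 1.17).

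Glucocorticoid-responsive genes, in a list that also holds receptor genes, are given beside the clock because glucocorticoids induce Per1 in mammals. Of 10 genes in that list 2 were at least 1.5-fold lower, where 1.71% of all genes were, 0 were higher and the median was -0.09. They were fkbp5 at a read ratio of 0.274 (0.251 to 0.30) and klf9 at 0.416 (0.356 to 0.484). By reads, where 3.13% of all genes were that much lower, pck1 was lower too, at 0.654 (0.603 to 0.709). The receptor gene nr3c1 had 1.05 (0.989 to 1.12). Of the 10 counting intervals, 4 lay below 1, 1 lay above it and 5 held 1, beside 14.5% below and 15.8% above over all genes. Named with their values in view, tsc22d3 at 1.04 (0.973 to 1.12) and sgk1 at 1.04 (0.956 to 1.12) held 1. The interval above 1 was that of pomca, at 1.47 (1.12 to 1.93), also named with its value in view. The list was not sorted by the direction in which glucocorticoids move each gene. Its median and counts are therefore no measure of a response. The part of these genes in the per1a difference was not tested.

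**Figure D5:**
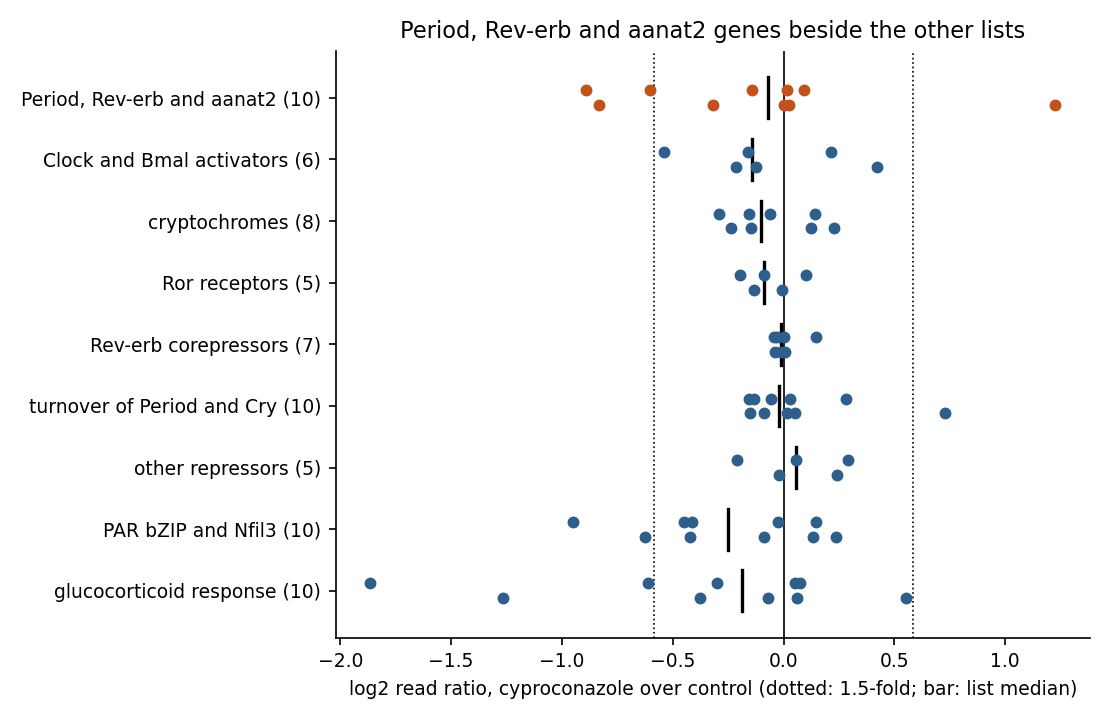
Log2 read ratio, cyproconazole over control, of each compared gene (points) by list, with the number of genes in brackets, the list median (black bar) and dotted lines at 1.5-fold. The 10 genes described here (orange) spread from nr1d1 at 0.539 to aanat2 at 2.34 as ratios. The activators, cryptochromes, Ror receptors and corepressors all lie between the dotted lines. Other lists also hold genes past them: the turnover list reaches 1.66, the PAR bZIP and Nfil3 list 0.517 and the glucocorticoid list 0.274.

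Some reads of 3 members could belong to other genes. In RefSeq (GRCz12tu, a later build than that of the files), nr1d4a overlaps rarga, nr1d4b overlaps rargb and per1b overlaps dthd1, and the other 7 members overlap no gene. Whether reads were counted by strand is not given in the sources used here. By reads, the retinoic acid receptor gene rarga stood at 0.966 (0.901 to 1.04). It held 1502 reads untreated and 1670 exposed, far more than the 33 and 38 of nr1d4a. For rargb, 126 and 118 reads gave 0.814 (0.628 to 1.05), beside 148 and 173 reads of nr1d4b. Few reads fell in dthd1, 11 and 15, beside the 1238 and 1441 of per1b. How far reads of rarga and rargb enter the values of nr1d4a and nr1d4b was not tested.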

How the data were processed

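The authors deposited 1 table with an FPKM value per gene and library, per the file headers. Other columns, per the file headers, are a mean normalized count (a signal divided by size factors), a log2 ratio shrunken towards 0 with its standard error, the score of that ratio over its error, and an unadjusted p-value. The submitters' processing notes name Cufflinks 2.1.1, HTSeq 0.6.1, Picard 1.29, SAMtools, TopHat2 2.0.4 and the build GRCz10, with no role or order.

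Whole reads were recovered from the deposited mean counts: each is a whole multiple of 1 step (largest deviation 0.0057, tolerance 0.01), and the control's step is to the cyproconazole step as 68 to 59. Where several pairs of reads were possible (1 to 85 for the members), the pair was kept whose implied standard error matched the deposited one within 1e-05, with the next pair at least 10 times worse. This gave reads for 23788 of 23809 genes (99.9%). In 23684 genes simulated on the 2 libraries, 100% of the pairs kept were right. The simulation used the same model as the recovery. It therefore checks the calculation and not whether the deposited values follow that model. Library scaling used a trimmed mean of M values (30% and 5% trimmed; Python 3.11.15, NumPy 2.4.6, pandas 2.3.3, SciPy 1.17.1).

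Genes were compared with at least 50 reads over both libraries. Comparisons by FPKM (18640 genes) also required an FPKM above 0 in each library, and shares of all genes by reads (18633 genes) a recovered pair of reads instead. No test was possible with 1 library per group. Members and lists were chosen with earlier results of these data known. Named are the 10 members, every measured list gene past 1.5-fold (by reads only with an interval off 1), and 12 defining genes whatever their values. Further list genes were named with their values in view. Alternatives were other scalings, added values, minimums and thresholds.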

Additional observations from a re-analysis of the deposited data

How the results depend on the processing

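No paired analysis was possible because there is only 1 library in a group, and leaving out a library would leave no comparison. Of 60 values of single members recomputed under another scaling, added value, centring or unit, 58 moved by less than counting error. Among those past 1.5-fold, 0 changed sign. The scalings differ by at most 0.0041 on the log2 scale and centring shifts every gene alike, so these settings could hardly move a value. The value of aanat2 went from 0.72 by FPKM to 1.23 by reads, and counts as unmoved only because its counting interval is wide. By reads 2 values moved further than counting error: per1a to -0.83 and nr1d2a to -0.60 on the log2 scale, from -0.34 and -0.72 by FPKM. For per1a the added 1 accounts for part by construction; for nr1d2a the cause was not tested. At a 2-fold threshold on log2(FPKM + 1), 0 members were lower and 0 higher, and with at least 200 reads 0 were higher, since aanat2 has fewer. Leaving out members below 1 FPKM in both libraries, chosen after seeing the data, kept the counts at 2 and 1. Over all genes, 318 lay at or past 1.5-fold on the lower side and 295 on the higher. With 0.1 FPKM added these were 620 and 596, by reads 583 and 533, and at 2-fold 83 and 50, with 172 higher at 200 reads. The PAR bZIP median was -0.01 by FPKM and -0.25 by reads, and the nr1d2a over nr1d2b quotient 0.637 by FPKM; the cause was not tested. Depth limits the genes with few reads, among them nr1d4a, aanat1, exorh, asmt and aanat2.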
